A study of Mus musculus with 2 samples.

Results

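The 9 genes described here encode homeobox transcription factors that pattern the embryonic forebrain: Lhx2, Emx2, Dlx1, Dlx2, Dlx5, Dlx6, Six3, Meis2 and Gsx2. They were taken by name from a table of 23176 genes, in which all 9 are listed, and no forkhead gene is among them. Of these 9 genes, 6 carry a test in the authors' deposited table, and Dlx6, Six3 and Gsx2 do not.

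The levels come from sequencing of polyadenylated RNA in a pair of mouse cell lines grown from the embryonic day 14 striatum on a 129SvEv/CD1 background. STHdhQ111 cells have the genotype HdhQ111/Q111, in which both copies of the huntingtin gene carry the expanded Q111 form, and STHdhQ7 cells have the genotype HdhQ7/Q7. Both lines were below passage 15, were kept at 33 °C and were held at 39 °C for 2 days to stop division, so both share the arrest treatment. As background, both lines are known to be immortalised with a temperature-sensitive viral T antigen. Each line has 1 sample, whose title names 3 replicates, and the table gives 1 combined FPKM per line (fragments scaled by the authors to transcript length and to the number of mapped fragments). The depth of the libraries is unknown, no spread between replicates can be computed, and each genotype is 1 line, so genotype and line history cannot be told apart. In these bulk samples, fewer cells expressing a gene and less RNA per cell cannot be told apart either.

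These factors divide the early forebrain between them. Lhx2, a LIM-homeodomain protein, and Emx2 are needed in mouse for growth and regional identity of the dorsal forebrain (pallium), whereas Gsx2 and the Dlx genes act in the ventral forebrain (subpallium), where the ganglionic eminences give rise to the striatum and to GABAergic neurons. Six3 specifies the anterior neural plate and later acts in the developing striatum, and Meis2, a cofactor of the TALE class, is abundant in striatal precursors. Most of them also work outside the brain, the Dlx and Meis genes in cranial neural crest and limb mesenchyme and Lhx2 and Six3 in the eye.

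The members did not move as a group. Called genes are those with a q of 0.05 or less in the authors' deposited table. Lhx2, Emx2 and Meis2 fell in STHdhQ111 cells, Dlx2 rose, Dlx1 and Dlx5 were tested and not called, and the other 3 had no test. Of the 6 members tested, 4 were called in either direction, against 13.5% of all 12740 tested genes. Of the 6, 3 were called lower and 1 was called higher, where the shares over all tested genes were 7.17% and 6.35%. Whatever the q, 3 of the 9 members were at least 2-fold lower in STHdhQ111 by the ratio of (FPKM + 0.5), against 5.72% of all listed genes, and 2 (Dlx2 and Dlx5) at least 2-fold higher, against 4.6%. The 4 called members lie between mean levels of 1 and 50 FPKM, where 18% of the 3057 tested genes at 1 to 5 FPKM and 11.1% of the 6892 tested genes at 5 to 50 FPKM were called. On the log2 scale of (FPKM + 0.5), STHdhQ111 over STHdhQ7, the median over all 9 members was 0 and that of the 6 tested was -0.40, beside -0.05 over all tested genes. The median of 0 is the value of Gsx2, listed at 0 FPKM in both lines. Over the members with a mean of 1 FPKM or more the median was -1.47. The members' FPKM summed to 23.6 in STHdhQ111 and 99.0 in STHdhQ7, and Lhx2 alone made up 13.9% of the sum in STHdhQ111 and 59.6% in STHdhQ7.

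**Figure D1:**
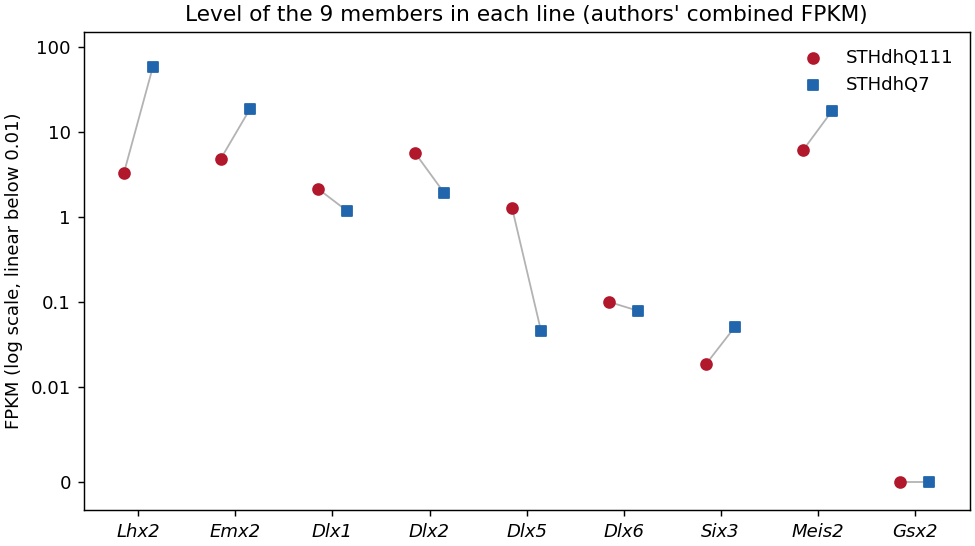
FPKM of each of the 9 members (log scale, linear below 0.01) in STHdhQ111 (red circles) and STHdhQ7 (blue squares), 1 combined value per line joined by a grey line. Lhx2, Emx2 and Meis2 lie lower in STHdhQ111, Dlx2 and Dlx5 lie higher, and Gsx2 is at 0 in both lines.

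Lhx2 had the highest level of the members in STHdhQ7 cells and the steepest fall. It was listed at 3.28 FPKM in STHdhQ111 and at 59.0 FPKM in STHdhQ7, an 18.0-fold lower level in STHdhQ111. Its level exceeded that of 27.1% of tested genes in STHdhQ111 and of 89.8% in STHdhQ7. The authors' deposited table gave Lhx2 a log2 fold change of -4.17 (implied SE 0.50) and listed its q as 0. The implied SE (standard error) is the fold change divided by the deposited statistic, and the 95% interval it gives for Lhx2 runs from -5.14 to -3.20. Among the 12647 tested genes with a finite fold change, Lhx2 stood at place 218 from the lowest. The gene lies on chromosome 2 at 38206828 to 38225248 of the mm9 build.

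Emx2 and Meis2 fell too. Emx2, the pallial factor (chromosome 19, 59533180 to 59539847), was listed at 4.89 FPKM in STHdhQ111 and at 18.8 FPKM in STHdhQ7, and the authors' deposited table gave it a log2 fold change of -1.94 (implied SE 0.44, q = 0.000207). Meis2, the TALE cofactor (chromosome 2, 115687000 to 115890794), was listed at 6.16 FPKM in STHdhQ111 and at 17.9 FPKM in STHdhQ7. For Meis2 the authors' deposited table gave a log2 fold change of -1.54 (implied SE 0.46, q = 0.00839). As a fold, Emx2 was 3.84-fold lower and Meis2 2.91-fold lower in STHdhQ111. Their log2 fold changes from the authors' deposited table differed by -0.40 (Emx2 minus Meis2), with a 95% interval from -1.64 to 0.85 when the implied errors are taken as independent. The same difference for Lhx2 minus Emx2 was -2.23 (interval from -3.53 to -0.93) and for Lhx2 minus Meis2 it was -2.63 (interval from -3.95 to -1.30). The fall of Lhx2 was the steeper by these implied errors, which may reflect technical spread alone. Lhx2 was set against the others as the steepest faller, so these intervals are a description only. The order of the levels differed between the lines. In STHdhQ111 Lhx2 stood below both Emx2 and Meis2, at 0.671 times the level of Emx2, and in STHdhQ7 it stood above them, at 3.14 times the level of Emx2.

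The Dlx genes, which sit in neighbouring pairs and promote the subpallial and GABAergic fate, were low in both lines. Dlx2 (chromosome 2, 71381465 to 71384811) was listed at 5.73 FPKM in STHdhQ111 and at 1.94 FPKM in STHdhQ7, 2.95-fold higher in STHdhQ111. Its log2 fold change of 1.56 in the authors' deposited table had an implied SE of 0.49 (q = 0.0128). Its level exceeded that of 38.0% of tested genes in STHdhQ111 and of 18.1% in STHdhQ7, so Dlx2 stayed below the middle of the tested genes in both.

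Dlx1, the partner of Dlx2 that lies 5.52 kb away (chromosome 2, 71367502 to 71375948), was listed at 2.16 FPKM in STHdhQ111 and at 1.19 FPKM in STHdhQ7. It was not called, with a log2 fold change of 0.87 in the authors' deposited table and a 95% interval from -0.29 to 2.02 (the authors' q = 0.488). The difference between the pair (Dlx2 minus Dlx1) was 0.70 on the log2 scale of the authors' deposited table, with an interval from -0.80 to 2.19, so the data do not separate the changes of Dlx1 and Dlx2. Dlx2 was the higher of both in each line, at 2.65 times the level of Dlx1 in STHdhQ111 and 1.63 times in STHdhQ7.

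Dlx5, which with Dlx6 forms the second pair (chromosome 6, 6827805 to 6832068), was listed at 1.30 FPKM in STHdhQ111 and at 0.0454 FPKM in STHdhQ7. Its ratio of 28.6 was the largest among the members, yet the log2 fold change of 4.84 in the authors' deposited table carried an implied SE of 2.02 and was not called (p = 0.0166, q = 0.102). The value in STHdhQ7 is near 0, and on the log2(FPKM + 0.5) scale the ratio of Dlx5 was 1.72. Dlx6 (listed locus on chromosome 6, 6770546 to 6819533) had no test and was listed at 0.101 FPKM in STHdhQ111 and at 0.0791 FPKM in STHdhQ7. That locus has the same midpoint as those of the overlapping Dlx6as1 and Dlx6as2, so it may be wider than the gene. Dlx6 was near 0 in both lines although its listed locus lies 8.27 kb from that of Dlx5.

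Six3 and Gsx2 had no test. Six3 (chromosome 17, 86020174 to 86025531) was listed at 0.0187 FPKM in STHdhQ111 and at 0.0517 FPKM in STHdhQ7. Gsx2 (chromosome 5, 75471626 to 75473918), which acts upstream of the Dlx genes in the lateral ganglionic eminence, was listed at 0 in both, as were 4553 of the 23176 genes. From high to low, the order of the members in STHdhQ111 was Meis2, Dlx2, Emx2, Lhx2, Dlx1, Dlx5, Dlx6, Six3 and Gsx2. In STHdhQ7 it was Lhx2, Emx2, Meis2, Dlx2, Dlx1, Dlx6, Six3, Dlx5 and Gsx2. With 1 value per line and no spread, neighbours in these orders cannot be said to differ.

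**Figure D2:**
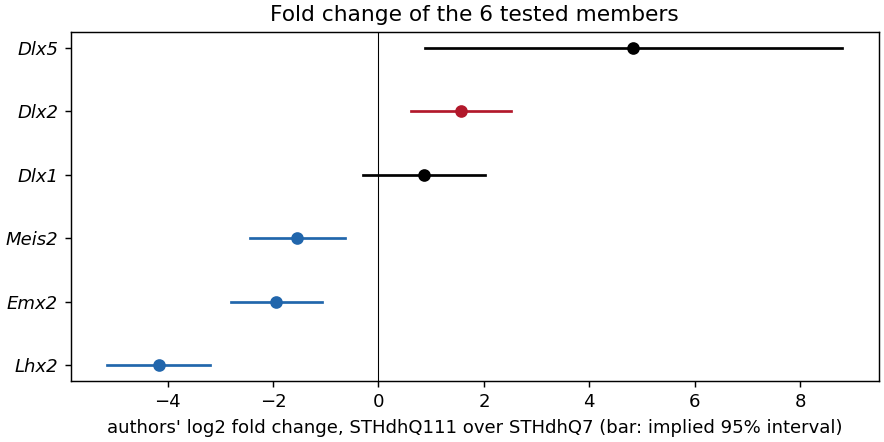
Log2 fold change of the 6 tested members in the authors' deposited table, STHdhQ111 over STHdhQ7, with the 95% interval implied by the deposited statistic, in blue where called lower, red where called higher and black where not called. The interval of Dlx1 spans 0, and that of Dlx5 is the widest, from 0.88 to 8.79.

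**Figure D3:**
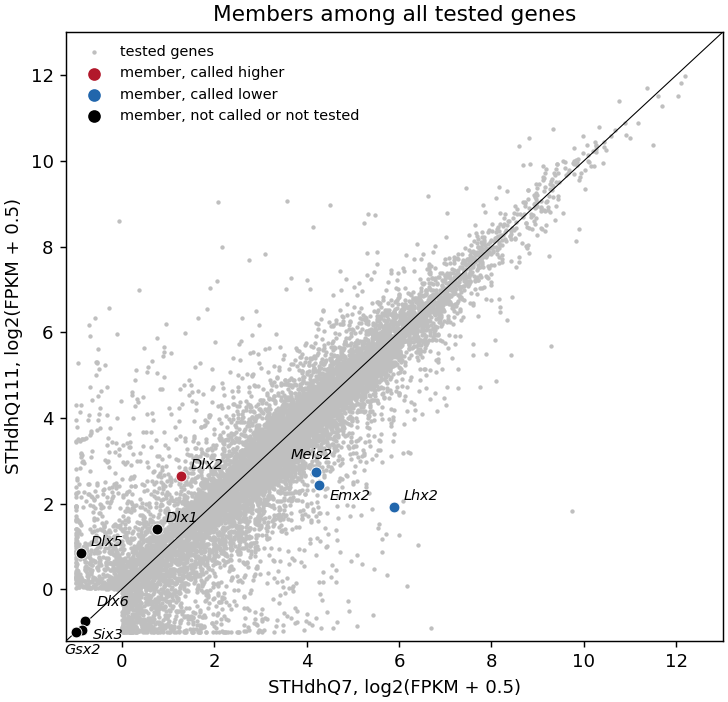
Levels of all tested genes (grey) and of the 9 members (coloured) as log2(FPKM + 0.5), STHdhQ111 on the vertical and STHdhQ7 on the horizontal axis, with the line of equal level. Lhx2 lies far below the line, Emx2 and Meis2 lie together below it, and Dlx2 lies above it.

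The promoters of the called members and of Dlx1 are shown because the series was titled for changes in DNA methylation, whose usual target in mammals is the cytosine of a CG step. The 250 bases before each annotated start come from the RefSeq promoter table on GRCm38.p6, a later build than the mm9 loci above, and CG steps are in capitals. Of the 9 members 7 were in that table, with 8 windows, since Lhx2 has a pair of starts. Dlx5 and Dlx6 were not matched.
Lhx2, chr2:38339031-38339280, plus strand: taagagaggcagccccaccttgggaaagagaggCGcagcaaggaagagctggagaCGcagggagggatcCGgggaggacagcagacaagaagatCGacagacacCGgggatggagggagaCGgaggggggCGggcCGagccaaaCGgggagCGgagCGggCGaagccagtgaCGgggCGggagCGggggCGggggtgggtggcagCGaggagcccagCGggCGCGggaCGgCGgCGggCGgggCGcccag
Lhx2, chr2:38351058-38351307, plus strand: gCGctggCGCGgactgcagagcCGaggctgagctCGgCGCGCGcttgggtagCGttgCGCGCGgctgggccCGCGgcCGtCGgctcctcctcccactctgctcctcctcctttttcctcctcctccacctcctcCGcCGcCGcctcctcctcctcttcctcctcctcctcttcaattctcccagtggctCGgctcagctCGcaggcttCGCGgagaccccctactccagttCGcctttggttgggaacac
Emx2, chr19:59458440-59458689, plus strand: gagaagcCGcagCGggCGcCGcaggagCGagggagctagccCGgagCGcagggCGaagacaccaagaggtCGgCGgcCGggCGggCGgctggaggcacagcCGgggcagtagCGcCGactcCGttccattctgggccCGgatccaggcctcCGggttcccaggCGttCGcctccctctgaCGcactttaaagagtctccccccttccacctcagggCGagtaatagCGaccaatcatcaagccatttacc
Dlx1, chr2:71529195-71529444, plus strand: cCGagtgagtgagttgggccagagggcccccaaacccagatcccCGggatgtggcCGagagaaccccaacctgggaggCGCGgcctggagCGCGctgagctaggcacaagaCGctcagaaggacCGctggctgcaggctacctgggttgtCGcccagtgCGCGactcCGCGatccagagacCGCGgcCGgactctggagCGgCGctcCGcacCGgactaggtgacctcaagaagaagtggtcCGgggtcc
Dlx2, chr2:71546755-71547004, minus strand: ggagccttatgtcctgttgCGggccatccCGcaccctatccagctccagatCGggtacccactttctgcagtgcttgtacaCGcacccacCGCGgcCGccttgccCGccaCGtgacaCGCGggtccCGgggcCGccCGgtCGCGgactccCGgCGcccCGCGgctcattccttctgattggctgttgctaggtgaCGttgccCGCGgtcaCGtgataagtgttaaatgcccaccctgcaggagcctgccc
Meis2, chr2:116064620-116064869, minus strand: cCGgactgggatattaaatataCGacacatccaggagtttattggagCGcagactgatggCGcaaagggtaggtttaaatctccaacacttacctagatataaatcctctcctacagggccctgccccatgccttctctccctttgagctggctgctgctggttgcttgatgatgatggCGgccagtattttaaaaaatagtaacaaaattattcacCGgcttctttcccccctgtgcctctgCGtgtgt
The windows of Lhx2, Emx2, Dlx1 and Dlx2 were dense in CG steps and those of Meis2 and Six3 held fewer. The Lhx2 windows held 25 and 24 CG steps, Emx2 held 24, Dlx2 held 24 and Dlx1 held 22. The median over all 32851 windows was 6, and 88.0% of windows had fewer CG steps than Emx2 or Dlx2. Meis2 held 7 and Six3 held 10, and Gsx2 held 16. The GC content was 72.8% and 68.4% in the Lhx2 windows, 67.2% in Emx2, 66.4% in Dlx2 and 47.6% in Meis2. These windows are reference sequence, so they hold no difference between the lines. Their methylation was not examined here, and any part of CG content in the changes was not tested. The TATA-type word TATAAA, searched on both strands, was present for Meis2 and Gsx2 and in 12.4% of all windows. The homeodomain word TAATTA, which reads the same on both strands, was in none of the 8 windows and in 4.84% of all. The MEIS-type word TGACAG, searched on both strands, was present for Six3 only, and in 15.9% of all windows.

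Of the nearest genes on each side of the members, none beside Lhx2, Emx2 or Meis2 was called lower. Next to Lhx2, the kinase gene Nek6, 142.0 kb away, rose to 16.6 FPKM in STHdhQ111, against 5.25 FPKM in STHdhQ7 (the authors' q = 0.00124 in the authors' deposited table). On the other side Crb2 and Dennd1a were listed with the same midpoint, so the listed loci do not tell which lies nearer. Crb2 was untested at 0.0686 FPKM in STHdhQ111 and 0.123 FPKM in STHdhQ7. Dennd1a was tested and not called, with a log2 ratio of (FPKM + 0.5) of -0.30. Beside Six3, the related gene Six2, 58.1 kb away, rose to 3.49 FPKM in STHdhQ111, against 0.226 FPKM in STHdhQ7. Six2 had a log2 fold change of 3.95 in the authors' deposited table (implied SE 0.62, q = 7.47e-09), although Six3 stayed near 0. Metap1d, which lies 4.25 kb from Dlx1 and encodes a methionine aminopeptidase, was listed at 13.4 FPKM in STHdhQ111 and 9.08 FPKM in STHdhQ7 and was not called. Chic2 beside Gsx2 (34.6 FPKM in STHdhQ111 and 24.0 FPKM in STHdhQ7), Acn9 beside Dlx5 (8.02 FPKM in STHdhQ111 and 5.48 FPKM in STHdhQ7) and BC052040 beside Meis2 (2.54 FPKM in STHdhQ111 and 2.72 FPKM in STHdhQ7) were not called either. The other nearest genes, 2700089I24Rik, Gm1631, 2810405F15Rik and Gm19583, were untested. 2810405F15Rik was listed at 0.0476 FPKM in STHdhQ111 and 0.201 FPKM in STHdhQ7. Farther out within 200 kb, Pdgfra, a growth factor receptor gene whose midpoint lies 99.6 kb from the start of Gsx2, rose to 9.28 FPKM in STHdhQ111, against 3.34 FPKM in STHdhQ7. Hat1 in the region of Dlx1 was listed at 17.4 FPKM in STHdhQ111 and 35.8 FPKM in STHdhQ7 and was not called, nor were Pdzd8 and Slc18a2 in the region of Emx2.

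Transcripts from the opposite strand of the members were scarce. Of the 8 names listed, 4 were in the table, and only Emx2os, whose locus lies 0.054 kb from that of Emx2, had a test. It was listed at 0.889 FPKM in STHdhQ111 and 1.56 FPKM in STHdhQ7 and was not called (the authors' q = 0.516 in the authors' deposited table). Dlx1as, which overlaps Dlx1, was listed at 0.224 FPKM in STHdhQ111 and 0.204 FPKM in STHdhQ7, and Six3os1 at 0.0301 FPKM in STHdhQ111 and 0.0421 FPKM in STHdhQ7. Dlx6as1 was at 0.0205 FPKM in STHdhQ111 and listed at 0 in STHdhQ7. The library method is not described as marking strand, so reads of Emx2 and Emx2os, or of Dlx1 and Dlx1as, cannot be told apart where they overlap. Words of 36 bases from the GENCODE M21 transcripts showed how far this and shared sequence reach. All words of Lhx2, Dlx2, Dlx5 and Gsx2 occurred in no other gene, against 99.6% of those of Meis2, 96.2% of Six3, 94.3% of Dlx1, 92.4% of Emx2 and 91.0% of Dlx6. No member shared words mostly with a paralogue, and the gene sharing most words with Emx2 was Emx2os, with 229.

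The 6 DLX genes summed to 9.64 FPKM in STHdhQ111 and 4.91 FPKM in STHdhQ7. Dlx2 made up 59.4% of that sum in STHdhQ111 and 39.4% in STHdhQ7, and Dlx5 13.5% in STHdhQ111 and 0.924% in STHdhQ7. Dlx3, which acts in skin, tooth and bone, went the other way. It fell to 0.0238 FPKM in STHdhQ111, against 0.980 FPKM in STHdhQ7 (the authors' q = 0.0063 in the authors' deposited table), which is 0.246% of the DLX sum in STHdhQ111 and 19.9% in STHdhQ7. Dlx4 was listed at 0.323 FPKM in STHdhQ111 and 0.685 FPKM in STHdhQ7 and was not called.

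The 12 LIM-homeodomain genes summed to 7.14 FPKM in STHdhQ111 and 69.0 FPKM in STHdhQ7, a 9.66-fold lower sum in STHdhQ111. Of the 5 tested, Lhx2 (itself a member), Lhx1 and Lhx9 were called lower, and 0 were called higher (all tested genes, 7.17% lower and 6.35% higher). Lhx1, which acts in kidney and in Purkinje cells among others, was listed at 0.00649 FPKM in STHdhQ111 and 4.01 FPKM in STHdhQ7. Lhx9, a close relative of Lhx2 in the pallium, was listed at 0.259 FPKM in STHdhQ111 and 2.58 FPKM in STHdhQ7. Lhx6, a factor of interneurons from the medial ganglionic eminence, was not called, at 2.97 FPKM in STHdhQ111 and 2.36 FPKM in STHdhQ7. Lhx6 made up 41.6% of the LIM sum in STHdhQ111 and 3.42% in STHdhQ7, and Lhx2 made up 45.9% in STHdhQ111 and 85.5% in STHdhQ7. Isl1 and Lhx4 were listed at 0 in both lines.

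Among the paralogues of Six3, Six2 was called higher, as given above. Six4, known from muscle and sensory placodes, fell to 3.05 FPKM in STHdhQ111, against 7.90 FPKM in STHdhQ7. Six5 was listed at 3.83 FPKM in STHdhQ111 and 2.67 FPKM in STHdhQ7 and was not called. Among the MEIS genes only Meis2 was called. Meis1 was listed at 6.09 FPKM in STHdhQ111 and 3.47 FPKM in STHdhQ7, and Meis3 at 4.73 FPKM in STHdhQ111 and 2.97 FPKM in STHdhQ7. Meis2 held 36.3% of the MEIS sum in STHdhQ111 and 73.6% in STHdhQ7, so the 3 MEIS genes stood at closer levels in STHdhQ111. Emx1, the paralogue of Emx2, was listed at 0 in both lines, and Gsx1 was listed at 0.0794 FPKM in STHdhQ111 and 0.0556 FPKM in STHdhQ7.

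**Figure D4:**
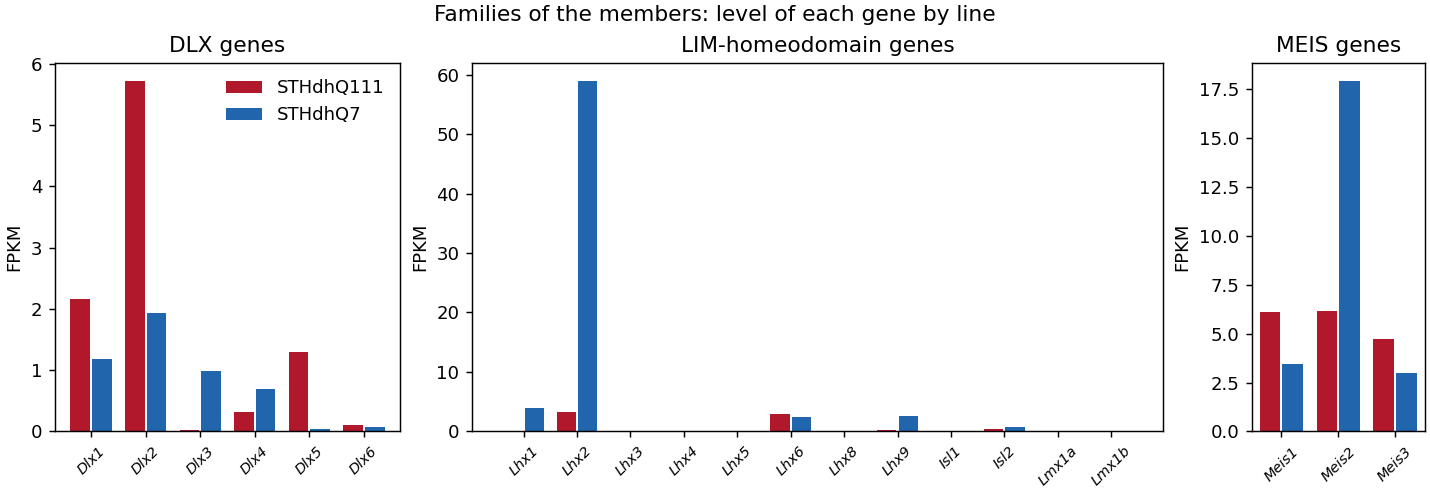
FPKM of each gene of the DLX, LIM-homeodomain and MEIS families in STHdhQ111 (red bars) and STHdhQ7 (blue bars), 1 combined value per line and no error bars. The LIM panel is dominated by Lhx2 in STHdhQ7, and the DLX panel by Dlx2 in STHdhQ111.

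Counted over the 22 paralogues outside the 9 members, 12 had a test, 5 were called lower (Lhx1, Lhx9, Dlx3 and Six4 among them), 1 was called higher (Six2) and 6 were not called, where 7.17% of all tested genes were called lower and 6.35% higher. Their median log2 ratio was -0.51, beside -0.05 over all tested genes.

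Of 20 genes for proteins that act together with the members, 17 had a test, 2 were called lower, 1 was called higher and 14 were not called, and the median log2 ratio was -0.19. The share called, 17.6%, was near the 13.5% of all tested genes. The 2 called lower were LIM-only proteins, which bind the same adaptor as the LIM-homeodomain factors. Lmo4 fell to 32.9 FPKM in STHdhQ111, against 110.8 FPKM in STHdhQ7 (the authors' q = 0.000561 in the authors' deposited table), and Lmo1 to 3.71 FPKM in STHdhQ111, against 13.5 FPKM in STHdhQ7. The adaptor Ldb1 itself was listed at 121.6 FPKM in STHdhQ111 and 78.5 FPKM in STHdhQ7, and its binding partners Ssbp3 (84.7 FPKM in STHdhQ111 and 49.3 FPKM in STHdhQ7) and Ssbp4 (56.5 FPKM in STHdhQ111 and 42.8 FPKM in STHdhQ7) were likewise not called. The corepressor gene Tle1 of the Groucho family, which works with Six3 in mouse, rose to 17.6 FPKM in STHdhQ111, against 8.40 FPKM in STHdhQ7 (the authors' q = 0.0463 in the authors' deposited table). The TALE factor genes Pbx2 and Pbx3, whose proteins bind DNA together with Meis proteins, were not called. Pbx2 was listed at 16.5 FPKM in STHdhQ111 and 12.2 FPKM in STHdhQ7, and Pbx3 at 6.27 FPKM in STHdhQ111 and 6.96 FPKM in STHdhQ7.

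Other regulators of the ganglionic eminences and striatum changed in both directions. Of 24, 12 had a test, 4 were called higher, 4 lower and 4 not called, with a median log2 ratio of -0.26 (all tested genes, 6.35% higher and 7.17% lower). Those called higher were Zfp503, which acts in striatal progenitors (49.9 FPKM in STHdhQ111 and 10.2 FPKM in STHdhQ7), Foxp1, a factor of medium spiny neurons (22.4 FPKM in STHdhQ111 and 9.35 FPKM in STHdhQ7), Maf (21.5 FPKM in STHdhQ111 and 8.66 FPKM in STHdhQ7) and Sp9 (3.04 FPKM in STHdhQ111 and 0.620 FPKM in STHdhQ7). Sp8, the close relative of Sp9, fell to 0.0347 FPKM in STHdhQ111, against 3.60 FPKM in STHdhQ7. The nuclear receptor Nr2f1, which sets cortical areas and marks the caudal ganglionic eminence, fell to 0.165 FPKM in STHdhQ111, against 42.6 FPKM in STHdhQ7 (the authors' q listed as 0 in the authors' deposited table). Nr2f2 fell to 7.28 FPKM in STHdhQ111, against 38.4 FPKM in STHdhQ7, and Etv1 to 0.0277 FPKM in STHdhQ111, against 2.40 FPKM in STHdhQ7. Tshz1 and Ebf1 were not called, at 4.98 and 3.19 FPKM in STHdhQ111 and 5.73 and 4.23 FPKM in STHdhQ7. Among the untested genes, Nkx2-1 was listed at 0.0845 FPKM in STHdhQ111 and 0.0899 FPKM in STHdhQ7, Bcl11b at 0.0610 FPKM in STHdhQ111 and 0.0648 FPKM in STHdhQ7, and Isl1 at 0 in both.

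Of 22 regulators of the pallium and cortical hem only 6 had a test. Of these 4 were called lower, 1 was called higher and 1 was not called, with a median log2 ratio of -2.12 (all tested genes, 7.17% lower and 6.35% higher). Pax6 fell to 0.0213 FPKM in STHdhQ111, against 14.9 FPKM in STHdhQ7, Otx1 to 1.17 FPKM in STHdhQ111, against 12.4 FPKM in STHdhQ7, and Lef1, an effector of Wnt signalling, to 0.196 FPKM in STHdhQ111, against 2.73 FPKM in STHdhQ7. Lhx9 is the fourth. The Wnt antagonist gene Sfrp2 rose to 3.90 FPKM in STHdhQ111, against 1.21 FPKM in STHdhQ7, and Gli3 was listed at 9.13 FPKM in STHdhQ111 and 13.04 FPKM in STHdhQ7 and was not called. The genes of pallial neurons and their precursors, Tbr1, Eomes, Neurog1, Neurog2, Neurod1 and Neurod6, had no test, and no untested gene of this list exceeded 0.0926 FPKM in STHdhQ111 or 0.232 FPKM in STHdhQ7.

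Genes that depend on DLX factors in the mouse brain were low or untested for the most part. Of the 11 that the table lists, 5 had a test, and the untested ones included the GABA synthesis genes Gad1 (0.0334 FPKM in STHdhQ111 and 0.0257 FPKM in STHdhQ7), Gad2 (0.0788 FPKM in STHdhQ111 and 0.0679 FPKM in STHdhQ7) and the transporter gene Slc32a1 (listed at 0 in both). Among the tested genes 3 were called lower, 1 was called higher and 1 was not called, with a median log2 ratio of -1.70 (all tested genes, 7.17% lower and 6.35% higher). The list holds genes that DLX factors activate and genes that they repress. Nrp2, a guidance receptor gene that they repress, fell to 8.67 FPKM in STHdhQ111, against 72.4 FPKM in STHdhQ7 (the authors' q = 1.8e-09 in the authors' deposited table). Zeb2 fell to 1.48 FPKM in STHdhQ111, against 5.95 FPKM in STHdhQ7, and the chemokine receptor gene Cxcr4 to 0.154 FPKM in STHdhQ111, against 1.74 FPKM in STHdhQ7. The second receptor for the same chemokine, Cxcr7, rose to 13.4 FPKM in STHdhQ111, against 2.80 FPKM in STHdhQ7. Pak3, a kinase gene, was listed at 4.04 FPKM in STHdhQ111 and 3.60 FPKM in STHdhQ7 and was not called.

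The signals that position these factors in the embryo held calls in both directions. Of 25 genes 15 had a test, 5 were called higher, 4 lower and 6 not called, and the median log2 ratio was 0.03 (all tested genes, 6.35% higher and 7.17% lower). The BMP antagonist gene Nog rose to 3.82 FPKM in STHdhQ111, against 0.161 FPKM in STHdhQ7, and Bmp7 to 1.47 FPKM in STHdhQ111, against 0.0857 FPKM in STHdhQ7. Fgf18 rose to 18.4 FPKM in STHdhQ111, against 4.001 FPKM in STHdhQ7. The FGF receptor genes parted, with Fgfr2 higher at 12.1 FPKM in STHdhQ111, against 4.66 FPKM in STHdhQ7, and Fgfr1 lower at 29.2 FPKM in STHdhQ111, against 87.7 FPKM in STHdhQ7. In the Hedgehog pathway the receptor gene Ptch1 rose to 14.2 FPKM in STHdhQ111, against 6.13 FPKM in STHdhQ7. The effector gene Gli2 fell to 0.606 FPKM in STHdhQ111, against 3.43 FPKM in STHdhQ7. Gli1 had no test and was listed at 0.339 FPKM in STHdhQ111 and 0.332 FPKM in STHdhQ7. Wnt7a fell to 0.236 FPKM in STHdhQ111, against 6.09 FPKM in STHdhQ7, and the retinoic acid enzyme gene Aldh1a3 to 0.0754 FPKM in STHdhQ111, against 1.003 FPKM in STHdhQ7. Smo, Bmp4 and Spry1 were not called, at 36.5, 28.3 and 9.12 FPKM in STHdhQ111 and 25.6, 16.6 and 17.0 FPKM in STHdhQ7. Shh (0.00424 FPKM in STHdhQ111 and 0.397 FPKM in STHdhQ7) and Fgf8 (0.00979 FPKM in STHdhQ111 and 0.0241 FPKM in STHdhQ7) had no test.

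**Figure D5:**
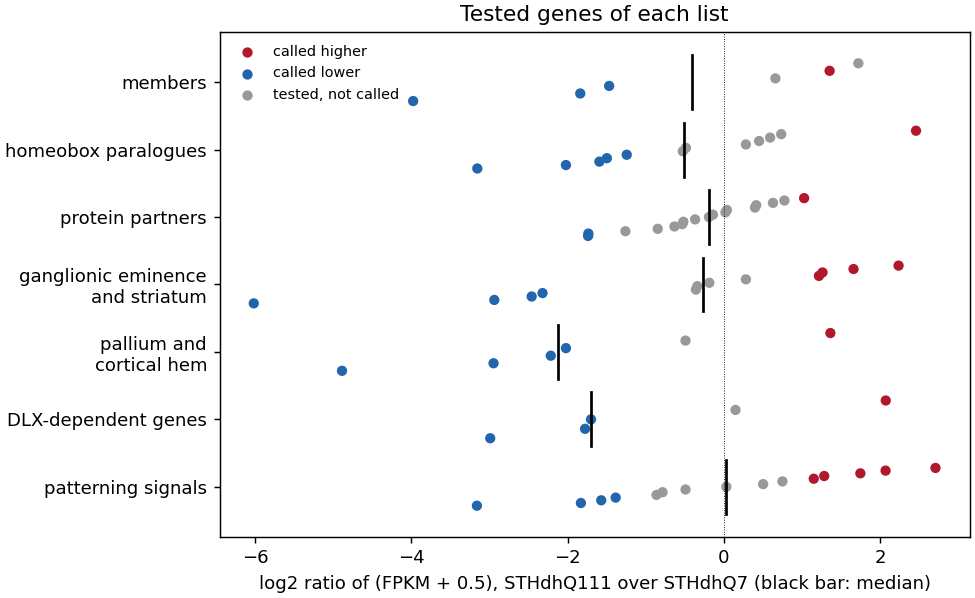
Log2 ratio of (FPKM + 0.5), STHdhQ111 over STHdhQ7, of each tested gene in the 7 lists, in red where called higher, blue where called lower and grey where not called, with the list median as a black bar. The members and most lists hold calls on both sides of 0, and the medians run from -2.12 in the pallial list to 0.03 in the signals.

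Markers bear on what the labelled striatal cells resemble. Of the 11 medium spiny neuron markers that were listed, 9 were under 0.5 FPKM in STHdhQ111 and 8 in STHdhQ7, and Drd1a was listed at 0 in both lines. Of the 3 tested, 1 was called lower, Rgs9, at 0.0624 FPKM in STHdhQ111 and 0.629 FPKM in STHdhQ7 (all tested genes, 7.17% lower). The other 2 were not called. These were Penk, at 6.49 FPKM in STHdhQ111 and 2.85 FPKM in STHdhQ7, and Pde10a, at 0.630 FPKM in STHdhQ111 and 0.950 FPKM in STHdhQ7. Of 11 pan-neuronal markers 10 were under 0.5 FPKM in STHdhQ111 and 9 in STHdhQ7, with a summed level of 4.06 FPKM in STHdhQ111 and 36.5 FPKM in STHdhQ7. Most of the STHdhQ7 sum was Stmn2, a gene of growing axons, which fell to 0.0563 FPKM in STHdhQ111, against 33.5 FPKM in STHdhQ7. Tubb3, at 3.62 FPKM in STHdhQ111 and 2.42 FPKM in STHdhQ7, was not called and made up most of what was left. Of the 12 neural progenitor markers 6 were under 0.5 FPKM in STHdhQ111 and 5 in STHdhQ7. The 5 untested, Sox1, Sox3, Fabp7, Prom1 and Hes5, did not exceed 0.0522 FPKM in STHdhQ111 or 0.180 FPKM in STHdhQ7. Hes5 was listed at 0 in both. Sox2 (0.561 FPKM in STHdhQ111 and 72.0 FPKM in STHdhQ7), Pax6 and Nes (0.999 FPKM in STHdhQ111 and 35.99 FPKM in STHdhQ7) fell. The other 4 of the 7 tested were not called, where 13.5% of all tested genes were called in either direction. Vim was listed at 2483 FPKM in STHdhQ111 and 3303 FPKM in STHdhQ7, Notch1 at 48.0 FPKM in STHdhQ111 and 55.2 FPKM in STHdhQ7, Msi1 at 1.28 FPKM in STHdhQ111 and 2.16 FPKM in STHdhQ7, and Slc1a3 at 5.04 FPKM in STHdhQ111 and 2.79 FPKM in STHdhQ7.

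Markers of cells outside the brain in which Dlx and Meis genes also act were partly listed near 0. The 15 cranial neural crest mesenchyme markers summed to 277.7 FPKM in STHdhQ111 and 235.7 FPKM in STHdhQ7, and 8 of them were under 0.5 FPKM in STHdhQ111 and 7 in STHdhQ7. Of 8 tested only Pax9 was called (higher), a share near the 13.5% of all tested genes called in either direction. Sox10, the gene of migrating crest, was at 0.00653 FPKM in STHdhQ111 and 0.0031 FPKM in STHdhQ7. Most of both sums came from Prrx1 (101.5 FPKM in STHdhQ111 and 93.7 FPKM in STHdhQ7), Prrx2 (97.5 FPKM in STHdhQ111 and 73.9 FPKM in STHdhQ7) and Twist1 (58.8 FPKM in STHdhQ111 and 58.5 FPKM in STHdhQ7), none of them called. The 12 mesenchymal and mural markers summed to 2662 FPKM in STHdhQ111 and 1069 FPKM in STHdhQ7. Of the 10 tested, 3 were called higher and 1 lower (all tested genes, 6.35% higher and 7.17% lower). The collagen genes Col1a1 (1487 FPKM in STHdhQ111 and 451.9 FPKM in STHdhQ7) and Col1a2 (532.6 FPKM in STHdhQ111 and 11.5 FPKM in STHdhQ7) rose. Pdgfra (9.28 FPKM in STHdhQ111 and 3.34 FPKM in STHdhQ7) rose too, and Postn (1.46 FPKM in STHdhQ111 and 7.93 FPKM in STHdhQ7) fell. The 10 markers other than Col1a1 and Col1a2 summed to 642.5 FPKM in STHdhQ111 and 605.7 FPKM in STHdhQ7. Most of that sum was Acta2 and Col3a1, which were not called. The 7 eye field and retina markers summed to 2.77 FPKM in STHdhQ111 and 22.2 FPKM in STHdhQ7, a sum held mostly by Pax2 (0.618 FPKM in STHdhQ111 and 19.98 FPKM in STHdhQ7), while Six6 was at 0 in STHdhQ111 and Otx2 was listed at 0 in both. Astrocyte, leukocyte and endothelial lists each had at least 4 markers under 0.5 FPKM in either line, with Aqp4 and Cldn5 listed at 0 in both. The astrocyte markers Gja1 (103.1 FPKM in STHdhQ111 and 59.7 FPKM in STHdhQ7) and Aldh1l1 (9.29 FPKM in STHdhQ111 and 10.4 FPKM in STHdhQ7) were not called. Among leukocyte markers Cd68 rose to 72.4 FPKM in STHdhQ111, against 26.5 FPKM in STHdhQ7, and Tmem119 fell to 6.28 FPKM in STHdhQ111, against 22.3 FPKM in STHdhQ7. Among endothelial markers Tek rose to 1.46 FPKM in STHdhQ111, against 0.386 FPKM in STHdhQ7, and Flt1 fell to 0.783 FPKM in STHdhQ111, against 7.45 FPKM in STHdhQ7. The part of these marker differences in the changes of Lhx2, Emx2, Meis2 and Dlx2 was not tested.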

How the data were processed

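Polyadenylated RNA was sequenced from randomly primed cDNA on an Illumina platform, per the labels' protocols. The mm9 build, Cuffdiff, Cufflinks 2.0.2, Bowtie 0.12.7 and TopHat 1.4.0 are named per the submitters' processing notes. The annotation and the options are not stated there. The deposited FPKM are the authors' values, combined over the replicates of each line, so no test across samples was made and no replicate could be dropped. The log2 fold change, p-value and q-value are the authors' deposited statistics (named here as such), and the deposited test statistic is a score whose sign runs against the fold change. Recomputing a two-sided normal tail from that statistic matched the deposited p-value to within 2.7e-06, and a Benjamini-Hochberg adjustment of the 12740 tested genes matched the q-value to within 2.2e-06. Intervals therefore used the fold change divided by the statistic as standard error. The labels do not say whether replicates were separate cultures, and the p-values may reflect technical spread alone.

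A gene was called at q of 0.05 or less. Ratios of lists used a pseudocount of 0.5 FPKM, which understates changes of low genes. Locus starts were raised by 1, since end minus start equalled the reference gene length for 7132 of 20606 matched symbols and for 453 with 1 added. Positions and distances are those of the listed loci. Overlapping transcripts can share a listed locus, as the equal midpoints of Dlx1 and Dlx1as show, so a locus can be wider than its gene. The members and lists were chosen with earlier results of these data known. Named genes are all members, up to 8 called and 3 uncalled tested genes of each list, the nearest table genes within 200 kb and the 3 tested genes nearest in level to each called member. Some genes that this rule gives are not reported here. Untested genes, Pbx2, Pbx3, the remaining family genes and the markers were named after their values were seen. The rule also does not give Ptch1, Dennd1a, Hat1, Pdzd8 and Slc18a2. Other thresholds, adjustments, filters, fold minima, pseudocounts and scalings were tried. The steps were tested on simulated data. Python 3.11.15, numpy 2.4.6, pandas 2.3.3 and matplotlib 3.10.9 were used.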

Additional observations from a re-analysis of the deposited data

How the results depend on the processing

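No paired analysis was possible because the table holds 1 combined value per line, and no replicate could be left out. All 36 values of the members' log2 ratios under a pseudocount of 0.1 or 1, recentring by the median of genes at 1 FPKM or more (-0.05) or upper quartile scaling stayed within 1 implied standard error, or for Gsx2 within 0.1, of those reported, and no called member changed direction. For Dlx5, Dlx6 and Six3 this bound is loose, since their implied SEs are 2.02, 1.78 and 1.63. For recentring and scaling it is loose for every member. The recentring shift of -0.05 and the upper quartile factor of 1.02 on STHdhQ111 were too small to pass it. The ratio of Dlx5 depended on the pseudocount, at 3.26 with 0.1, 1.72 with 0.5 and 1.14 with 1. Of the 3 members called lower, 1 (Lhx2) passed a Bonferroni adjustment and 1 passed a 4-fold minimum. Of the 1 called higher, 0 passed at a q of 0.01, 0 with Bonferroni and 0 with the 4-fold minimum. A 2-fold ratio of (FPKM + 0.5) whatever the q gave 2 members higher (Dlx2 and Dlx5), against 4.6% of all listed genes. The median log2 ratio over the members at a mean of 1 FPKM or more was -1.47, since the low members Dlx5, Dlx6, Six3 and Gsx2 drop out. Calls in the pallial list fell to 3 at a q of 0.01. The shares of all tested genes that pass the q of 0.01, Bonferroni and 4-fold settings are not given. Whether these drops exceed those of other genes therefore cannot be told. The depth is unknown, so the levels of Dlx6, Six3 and Gsx2 cannot be given a detection limit.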

Other observations

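The tested genes closest to each called member in level, measured as the distance between their log2(FPKM + 0.5) values over the 2 lines, came from different gene classes. Closest to Lhx2 were Cp, the copper-carrying ferroxidase ceruloplasmin, at 3.01 FPKM in STHdhQ111 and 67.3 FPKM in STHdhQ7 (distance 0.217), Cd34, a surface sialomucin, at 3.67 FPKM in STHdhQ111 and 67.9 FPKM in STHdhQ7 (distance 0.246), and the netrin receptor gene Unc5b at 3.15 FPKM in STHdhQ111 and 42.1 FPKM in STHdhQ7 (distance 0.486). Closest to Emx2 were Zhx2, a zinc finger and homeobox factor, at 4.96 FPKM in STHdhQ111 and 19.4 FPKM in STHdhQ7, Hirip3, and Prc1, which organises the midzone of the dividing spindle. Closest to Meis2 were Nkain1, the mitochondrial carbonic anhydrase gene Car5b, and the histone chaperone gene Asf1b at 5.91 FPKM in STHdhQ111 and 16.9 FPKM in STHdhQ7. Closest to Dlx2 were the fatty acid binding protein gene Fabp4 (5.85 FPKM in STHdhQ111 and 1.97 FPKM in STHdhQ7), Tcp11l1 and Hist1h2bg. Of these Fabp4 and Hist1h2bg were not called although their levels lay within 0.0706 of Dlx2 on this scale. A likeness over 2 lines rests on 2 values and is a description only.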
